A study of Homo sapiens with 6 samples.

Results

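The BCL2 family apoptosis regulators analyzed here are 10 genes chosen by symbol: the anti-apoptotic *BCL2L1*, *MCL1* and *BCL2L2*, the pore-forming effectors *BAX* and *BAK1*, and the BH3-only genes *BID*, *BAD*, *BCL2L11*, *BBC3* and *PMAIP1*. All 10 had a row among the 12499 genes of the table, and all 10 passed the expression filter. Their expression was measured by RNA-seq of poly(A) mRNA in HaCaT cells, an immortalized line of human keratinocytes. One group was infected with a lentivirus carrying the *ATF7* coding sequence (LV-*ATF7*) and the other with a negative control lentivirus (LV-NC), for 48 hours in each case, and both were then kept in high glucose (HG) for 24 hours. There were 3 libraries per group and 6 in all. Whether the 3 were separate infections, and whether infected cells were selected, is not given in the sources used here, so p-values measure the spread between these libraries, which may be technical. In bulk RNA from such cultures, fewer cells expressing a gene and less RNA per cell cannot be told apart.

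BCL2 family proteins set the threshold of the mitochondrial pathway of apoptosis. BAX and BAK1 permeabilize the outer mitochondrial membrane, which releases cytochrome c and leads to caspase activation. BCL-XL (encoded by *BCL2L1*), MCL1 and BCL-W (encoded by *BCL2L2*) hold the effectors in check, and BH3-only proteins relay stress by occupying these guardians or by activating the effectors directly. In keratinocytes, BCL-XL and MCL1 are known as main survival members, and much of the control of BID, BAD and MCL1 acts on the protein, by cleavage, phosphorylation or turnover, which mRNA counts do not measure.

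The feature that all 10 genes share is the BH3 segment, a short helix that takes part in binding between family members. Its coding stretch was located in 1 principal transcript per gene of GENCODE release 29 (GRCh38) and is shown because it defines the family across its 3 roles. Each line is 45 bases, 5′ to 3′ on the coding strand. Capitals mark the 6 codons of the core, from a leucine or methionine codon to an aspartate codon, with a glycine, alanine or serine codon before the last.
BCL2L1: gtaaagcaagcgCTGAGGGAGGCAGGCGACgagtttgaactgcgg
MCL1: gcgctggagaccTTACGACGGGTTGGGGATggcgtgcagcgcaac
BCL2L2: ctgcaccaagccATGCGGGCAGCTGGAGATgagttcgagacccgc
BAX: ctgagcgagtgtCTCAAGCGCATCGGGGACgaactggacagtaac
BAK1: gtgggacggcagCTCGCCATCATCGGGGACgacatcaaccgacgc
BID: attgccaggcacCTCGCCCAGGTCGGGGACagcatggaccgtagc
BAD: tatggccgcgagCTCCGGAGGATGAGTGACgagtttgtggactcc
BCL2L11: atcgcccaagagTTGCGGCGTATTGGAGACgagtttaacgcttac
BBC3: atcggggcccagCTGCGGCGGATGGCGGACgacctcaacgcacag
PMAIP1: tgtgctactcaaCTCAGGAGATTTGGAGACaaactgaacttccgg
*BCL2L2* alone among the 10 opens the core with a methionine codon, *BAD* has a serine codon and *BBC3* an alanine codon in the place where the other 8 have glycine. The stretch lies within 1 coding exon in every gene, for example in exon 4 of *BID* at chr22:17739412-17739456 on the minus strand, in exon 4 of *BCL2L11* at chr2:111150091-111150135 on the plus strand, and in exon 3 of *BCL2L2* at chr14:23307891-23307935 on the plus strand. The pattern was found once in each protein except BID, which holds it 2 times, and there the match with glycine was taken.

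*ATF7*, the gene that the vector carries, went against the labels. It was 50.6, 46.4 and 52.2 CPM across the LV-NC-labeled libraries and 21.9, 25.7 and 28.0 CPM in those labeled LV-*ATF7*, and 18.2% and 27.1% of its exon bases lie in exons of other genes on the same and on the opposite strand. Groups are therefore named by their labels, and each direction below rests on those labels. Library totals ran from 16686472 to 20562768 counts. LV-NC replicate 1 stood apart from LV-NC replicates 2 and 3, with a mean chi-square per gene of 74.6 and 66.8 against 3.69 between those 2, so the results on the members, and some of the others, are also given without it. Keratinocyte markers (12 of 12 in the table) summed to 2156 to 3093 CPM across the LV-NC-labeled libraries and 7981 to 8652 CPM in those labeled LV-*ATF7*, with *KRT14* at 0.375 to 12.5 CPM in all 6. The rise in this sum was carried largely by *KRT5*, with means of 266.4 and 3354 CPM, and markers moved both ways: 7 were higher and 1, *KRT14*, was lower, and without LV-NC replicate 1 the counts were 8 and 4, with *KRT6A*, *KRT17* and *CDH1* also lower. The groups overlapped for *KRT14*, which was 0.375 CPM in LV-NC replicate 1, 12.5 and 11.3 CPM in replicates 2 and 3, and 1.38 to 1.82 CPM in LV-*ATF7*. Rows were found for 3 of 8 fibroblast, 2 of 6 melanocyte and 1 of 6 immune cell markers, of which the summed levels were at most 42.7, 24.8 and 9.57 CPM, and *PTPRC*, *SOX10* and *PDGFRB* had no row. The part of these differences in the results on the BCL2 family was not tested.

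Of the 10 genes, 6 differed between the groups in edgeR's quasi-likelihood test with a Benjamini-Hochberg adjusted p below 0.05, against a background of 67.6% of all genes tested. By the labels, *BID*, *BCL2L2* and *BCL2L1* were higher in LV-*ATF7*, where 34.7% of all genes were higher. *BCL2L11*, *BAD* and *BAK1* were lower, as were 32.9% of all genes. *MCL1*, *BAX*, *BBC3* and *PMAIP1* did not pass. The share of members called was thus close to that of all genes, and the groups were fully separate for 6 of 10, beside 72.7% of all genes. The median log2 fold change was -0.03 over the members and 0.00 over all genes, and the median size of the change was 0.48 and 0.67. By role, 2 of 3 anti-apoptotic genes rose, 1 of 2 effectors fell, and of the 5 BH3-only genes 1 rose and 2 fell. The largest changes, those of *BID* and *BCL2L11*, were of opposite sign within the BH3-only genes.

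**Figure D1:**
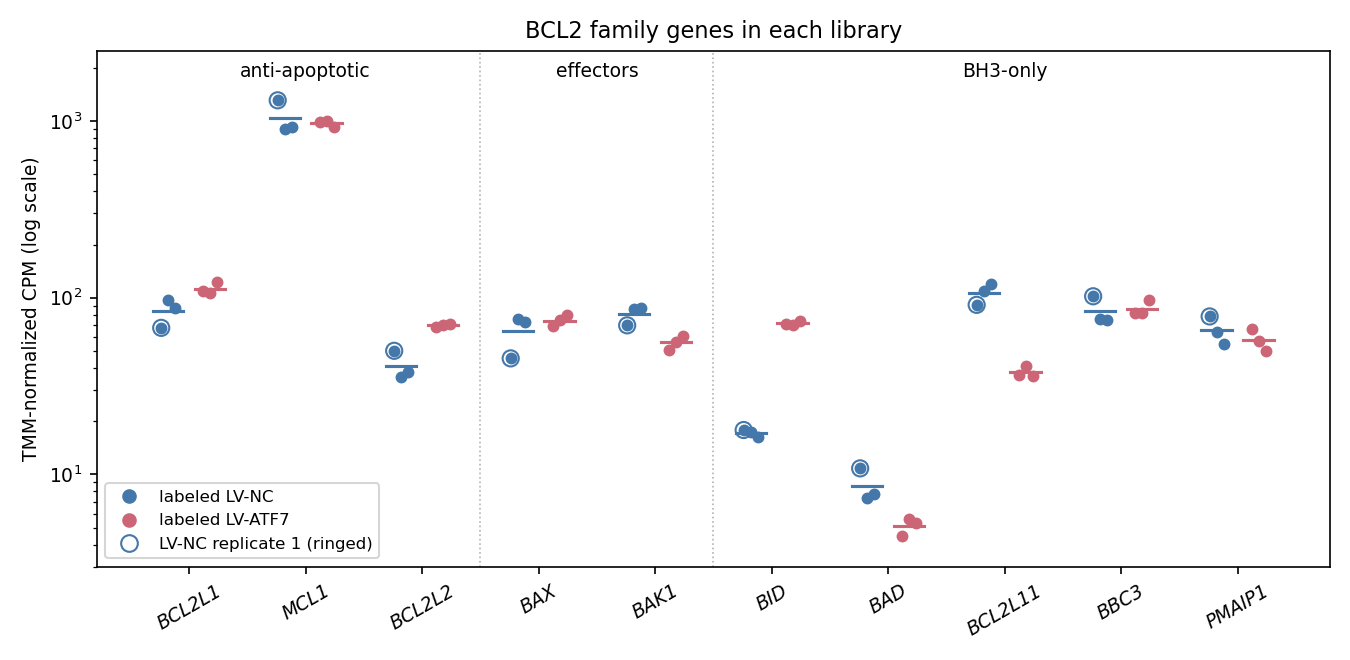
TMM-normalized CPM (log axis) of the 10 genes in each of the 6 libraries, grouped by role, with a bar at each group mean (n = 3) and LV-NC replicate 1 ringed. The groups stand clearly apart for *BID* and *BCL2L11*, whereas for *MCL1*, *BAX*, *BBC3* and *PMAIP1* they overlap and LV-NC replicate 1 is the highest or lowest point.

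Among the anti-apoptotic genes, *BCL2L2* rose most. BCL-W, its product, is known for its need in the male germ line. *BCL2L2* (ENSG00000129473, chr14:23298790-23311759, plus strand) was 50.1, 35.7 and 37.9 CPM in LV-NC replicates 1, 2 and 3 and 68.3, 70.4 and 71.4 CPM in LV-*ATF7* replicates 1, 2 and 3. The libraries labeled LV-*ATF7* lay within a narrow band above every library labeled LV-NC, of which replicate 1 was the highest. The means were 41.2 ± 7.74 CPM and 70.0 ± 1.57 CPM (SD, n = 3 each), a log2 fold change of 0.77 (standard error 0.14, adjusted p = 0.00142). It was 0.91 without LV-NC replicate 1 (adjusted p = 6.15e-10). The gene shares 19.4% of its exon bases with the readthrough gene *BCL2L2-PABPN1* on the same strand, which has no row, and 4.9% with *PPP1R3E* on the opposite strand. *PPP1R3E* (log2 fold change 1.04, adjusted p = 2.69e-04) and *PABPN1* (0.69, adjusted p = 0.00748) were also higher in LV-*ATF7*, and their part in the rise of *BCL2L2* was not tested.

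*BCL2L1* (ENSG00000171552, chr20:31664452-31723989, minus strand) encodes BCL-XL and, by alternative splicing, the shorter pro-apoptotic BCL-XS, which a count per gene does not separate. It was 67.5, 97.2 and 87.6 CPM across the 3 LV-NC-labeled libraries and 109.2, 106.1 and 122.4 CPM in those labeled LV-*ATF7*. The groups did not overlap, and the closest libraries were LV-NC replicate 2 and LV-*ATF7* replicate 2. The means of 84.1 ± 15.2 and 112.6 ± 8.64 CPM (SD, n = 3 each) gave a log2 fold change of 0.42 (standard error 0.14, adjusted p = 0.0297). This was the weakest of the 6 calls: without LV-NC replicate 3, or without LV-*ATF7* replicate 1, 2 or 3, the adjusted p was 0.0639, 0.0654, 0.0545 and 0.106, and with scaling to library size alone it was 0.101 at a log2 fold change of 0.26. Without LV-NC replicate 1 the log2 fold change was likewise 0.26, with an adjusted p of 0.00472. In the annotation, 43.0% of its exon bases lie opposite *ABALON*, which has no row.

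*MCL1* (ENSG00000143384, chr1:150574551-150579738, minus strand), whose short-lived protein must be replaced continually for cells to survive, was by far the most abundant member. It was 1310.3, 903.7 and 924.9 CPM across the LV-NC-labeled libraries and 986.7, 1005.9 and 928.1 CPM in those labeled LV-*ATF7*. The range of LV-NC enclosed all 3 libraries of the other group, since replicate 1 lay 43.3% above the mean of replicates 2 and 3. The log2 fold change came to -0.10 (standard error 0.16, adjusted p = 0.573), and without LV-NC replicate 1 it was 0.07 (standard error 0.06, adjusted p = 0.306).

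Of the effectors, *BAK1* fell and *BAX* did not pass the test. *BAK1* (ENSG00000030110, chr6:33572547-33580293, minus strand), whose product resides in the mitochondrial outer membrane, was 69.8, 86.5 and 87.6 CPM across the LV-NC-labeled libraries and 50.4, 56.4 and 61.0 CPM in those labeled LV-*ATF7*. Every library labeled LV-*ATF7* was below every library labeled LV-NC. The means were 81.3 ± 10.003 and 55.9 ± 5.31 CPM (SD, n = 3 each), and *BAK1* fell by 0.54 in log2 terms (standard error 0.12, adjusted p = 0.00524), or by 0.66 without LV-NC replicate 1. *BAX* (ENSG00000087088, chr19:48954815-48961798, plus strand), whose product is mostly cytosolic in healthy cells and moves to mitochondria on activation, was 45.3, 76.2 and 72.8 CPM in LV-NC and 68.9, 74.5 and 79.5 CPM in LV-*ATF7*. Only LV-NC replicate 1 lay away from the other 5 libraries, 39.1% below the mean of LV-NC replicates 2 and 3. The log2 fold change of *BAX* was 0.20 (standard error 0.19, adjusted p = 0.378) and changed sign to -0.03 (standard error 0.08, adjusted p = 0.778) without that library.

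*BID* showed the largest change of the 10 genes. Its product links death receptors to mitochondria, because caspase-8 cleaves it into the fragment that activates BAX and BAK1. *BID* (ENSG00000015475, chr22:17734138-17774770, minus strand) was 17.8, 17.4 and 16.4 CPM across the LV-NC-labeled libraries and 70.8, 70.4 and 73.6 CPM in those labeled LV-*ATF7*. The libraries of each group lay close together, LV-NC replicate 1 included, and the groups were far apart. From 17.2 ± 0.74 to 71.6 ± 1.75 CPM (SD, n = 3 each), expression was 4.16-fold higher, with a log2 fold change of 2.06 (standard error 0.09, adjusted p = 1.96e-06), and 10.5% of all genes tested had a larger change in either direction. The value was the same to 2 decimals without LV-NC replicate 1, and the exons of *BID* overlap no other annotated gene.

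*BCL2L11* encodes BIM, a BH3-only protein that binds all anti-apoptotic members, activates BAX and BAK1, and is known for its induction by FOXO factors. It (ENSG00000153094, chr2:111119378-111168447, plus strand) was 91.1, 108.5 and 119.0 CPM across the LV-NC-labeled libraries and 36.3, 41.3 and 36.0 CPM in those labeled LV-*ATF7*. The lowest library of LV-NC was more than double the highest of LV-*ATF7*. The means were 106.2 ± 14.1 and 37.9 ± 2.98 CPM (SD, n = 3 each), 2.80-fold lower in LV-*ATF7* (log2 fold change -1.49, standard error 0.13, adjusted p = 2.72e-05), and -1.60 without LV-NC replicate 1. Of all genes tested, 18.7% had a larger change. Its exons share 10.9% of their bases with *MIR4435-2HG* on the opposite strand, which has no row.

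*BAD* (ENSG00000002330, chr11:64269830-64284704, minus strand), a sensitizer that is held by 14-3-3 proteins when phosphorylated, was the least expressed member in counts. It was 10.8, 7.39 and 7.70 CPM across the LV-NC-labeled libraries, from 133 to 202 counts, and 4.47, 5.56 and 5.31 CPM in those labeled LV-*ATF7*, from 80 to 109 counts. The groups did not overlap, although LV-NC replicate 1 lay 43.3% above the mean of the other 2. *BAD* fell by 0.76 in log2 terms (standard error 0.20, adjusted p = 0.0103), and by 0.58 without LV-NC replicate 1 (adjusted p = 0.00245). Of its exon bases, 23.7% lie in exons of *GPR137* on the opposite strand, and whether the counting used strand is not given in the sources used here. *GPR137* was 62.1, 61.9 and 77.0 CPM across the LV-*ATF7*-labeled libraries against 112.0, 126.1 and 133.3 CPM in those labeled LV-NC (log2 fold change -0.89, adjusted p = 3.43e-04), and reads of these genes cannot be told apart if strand was ignored.

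*BBC3* and *PMAIP1* encode PUMA and NOXA, both known to be induced by cellular stress, and neither passed the test. *BBC3* (ENSG00000105327, chr19:47220822-47232766, minus strand) was 101.9, 75.6 and 75.1 CPM in LV-NC and 81.6, 81.8 and 96.8 CPM in LV-*ATF7*, and LV-NC replicate 1 was the highest of all 6. Its log2 fold change came to 0.04 (standard error 0.14, adjusted p = 0.811), and 0.18 (standard error 0.08, adjusted p = 0.0516) without that library. *PMAIP1* (ENSG00000141682, chr18:59899948-59904306, plus strand) was 78.3, 63.6 and 54.4 CPM in LV-NC and 66.5, 56.6 and 49.9 CPM in LV-*ATF7*, so that the groups overlapped. The log2 fold change came to -0.18 (standard error 0.16, adjusted p = 0.338) with all libraries and -0.05 (standard error 0.11, adjusted p = 0.651) without LV-NC replicate 1.

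**Figure D2:**
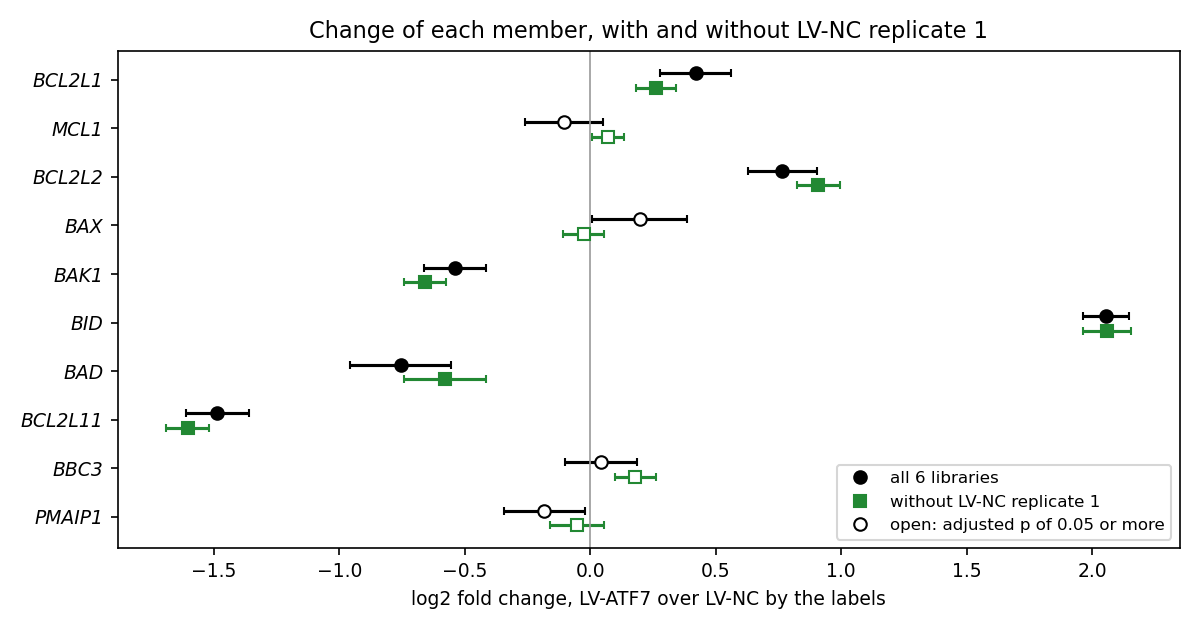
Change in expression (log2 of LV-*ATF7* to LV-NC, by the labels) for each gene, with bars of 1 standard error, from all 6 libraries (circles) and without LV-NC replicate 1 (squares), where filled symbols have an adjusted p under 0.05. The same 6 genes are filled in both fits, and *MCL1* and *BAX* cross 0 when that library is left out.

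LV-NC replicate 1 lay outside the range of the other 5 libraries for 6 of the 10 genes, beside 43.8% of all genes. It was the highest for *MCL1*, *BAD*, *BBC3* and *PMAIP1* and the lowest for *BCL2L1* and *BAX*. Against the mean of LV-NC replicates 2 and 3, it differed least for *BID*, by 5.54%, and most in fold terms for *BAX*, which was 0.609 times that mean, followed by *MCL1* and *BAD* at 1.43 times. Without it, the same 6 members passed the threshold, while the background rose to 80.1% of genes. With a fold change of at least 1.5 required as well, 4 members were left, *BID*, *BCL2L11*, *BCL2L2* and *BAD*, beside 52.9% of all genes.

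Levels of different genes were compared as CPM per kilobase of exon, with exons of all annotated transcripts counted once. On this scale, *MCL1* stood at 239.4 ± 52.4 in LV-NC and 222.7 ± 9.26 in LV-*ATF7* (SD, n = 3 each), far above every other member in both groups. It made up 52.8% to 63.5% of the summed level of the 10 genes per library. In LV-NC, *BAK1* (36.8 ± 4.52), *PMAIP1* (29.3 ± 5.40), *BBC3* (26.5 ± 4.81), *BCL2L1* (25.4 ± 4.58) and *BAX* (25.0 ± 6.54) followed, and neighbors in that order overlapped between libraries, as *BAX* did with *BCL2L11* (15.9 ± 2.11). Below came *BCL2L2* (9.84 ± 1.85), *BAD* (5.06 ± 1.11) and *BID* (3.87 ± 0.17), and from *BCL2L11* down no gene overlapped the next. In LV-*ATF7*, *BCL2L1* (34.0 ± 2.61) came after *MCL1* and did not overlap *BAX* (28.7 ± 2.05), whereas *BAX*, *BBC3*, *PMAIP1* and *BAK1* overlapped in turn. *BCL2L2* (16.7 ± 0.37) and *BID* (16.1 ± 0.39) overlapped there, above *BCL2L11* (5.69 ± 0.45) and *BAD* (2.99 ± 0.34). *BID* thus moved from the lowest of the 10 to the level of *BCL2L2*, and *BCL2L11* from above both to below them. BH3-only genes together held 18.6% to 19.7% of the summed level in the 6 libraries, with *BID* and *BCL2L11* changing places within it, and effectors held 17.4% and 17.6% in LV-NC replicates 2 and 3, 10.4% in LV-NC replicate 1 and 12.2% to 14.5% in LV-*ATF7*.

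**Figure D3:**
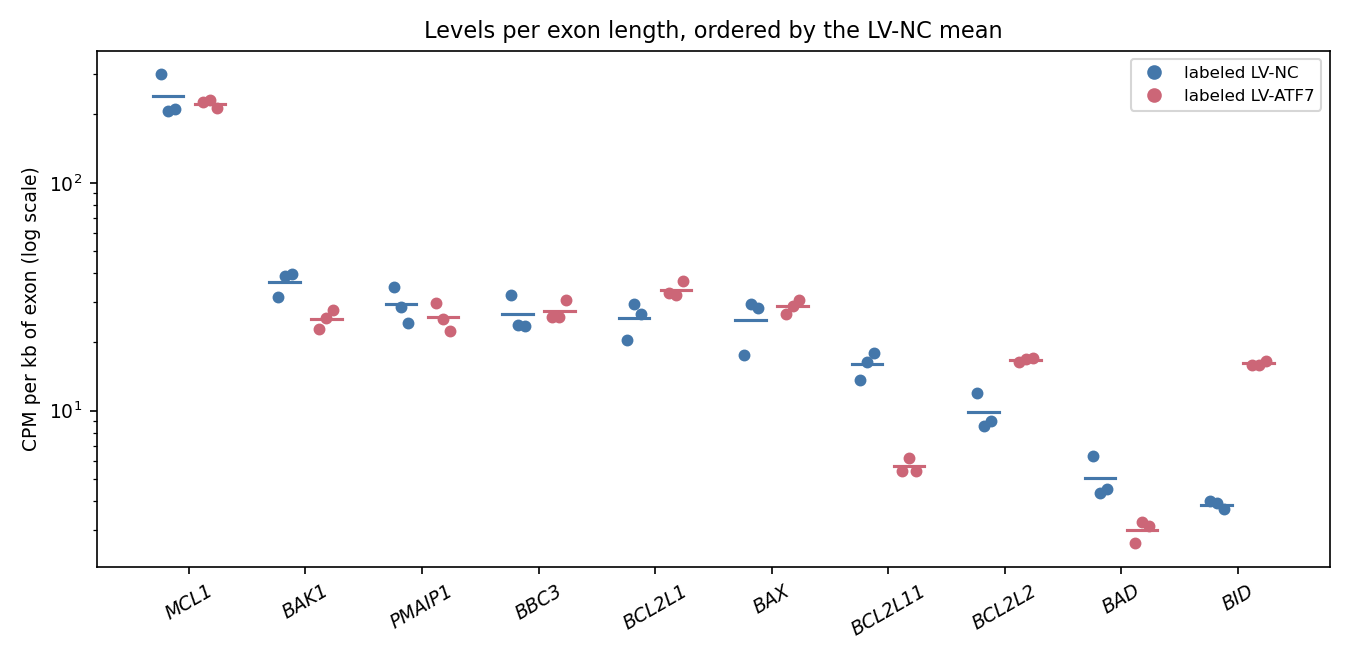
CPM per kilobase of exon (log axis) of each gene in the 6 libraries, ordered by the mean of the libraries labeled LV-NC, with a bar at each group mean (n = 3). *MCL1* exceeds all others in both groups, and *BID*, the lowest in LV-NC, reaches the level of *BCL2L2* in LV-*ATF7*.

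Because a ratio of 2 genes within a library does not depend on scaling between libraries, 8 ratios of a survival gene over a death-promoting gene were compared, as log2 of counts per kilobase and without a test. *MCL1* over *BCL2L11* was 4.45, 3.67 and 3.57 in LV-NC and 5.37, 5.21 and 5.30 in LV-*ATF7*. *BCL2L1* over *BAK1* was -0.63, -0.41 and -0.58 in LV-NC and 0.53, 0.33 and 0.42 in LV-*ATF7*, so that the ratio was higher in every LV-*ATF7* library. Its sign depends on the division by exon length, since without it the ratio was -0.047, 0.168 and 0.001 in LV-NC and 1.115, 0.911 and 1.005 in LV-*ATF7*, with the same difference between the groups. *BCL2L1* over *BAD* was 1.69, 2.76 and 2.55 against 3.65, 3.30 and 3.57. Of the 8, these were the 3 ratios whose groups did not overlap, with differences of 1.40, 0.97 and 1.18 in log2 units, and 1.68, 0.93 and 0.85 without LV-NC replicate 1. None of the 8 includes *BID*, and its ratios, added after the values were seen, went the other way. *MCL1* over *BID* was 6.22, 5.72 and 5.84 in LV-NC and 3.83, 3.86 and 3.68 in LV-*ATF7*, a difference of -2.14. For *BCL2L1* over *BID* and *BCL2L2* over *BID* the differences were -1.62 and -1.28, again with no overlap. The groups overlapped for *MCL1* over *PMAIP1*, *MCL1* over *BBC3*, *BCL2L1* over *BAX*, *BCL2L1* over *BBC3* and *BCL2L2* over *BAX*, with differences from -0.14 to 0.55. *BCL2L2* over *BAX* was -0.55 in LV-NC replicate 1 but -1.79 and -1.64 in replicates 2 and 3, against -0.85 to -0.71 in LV-*ATF7*, and the difference was 0.94 without that library. *BCL2L1* over *BAX* was 0.217 in LV-NC replicate 1 but -0.006 and -0.09 in replicates 2 and 3, against 0.154 to 0.307 in LV-*ATF7*. Its difference was 0.20, and 0.29 without that library. For *BCL2L1* over *BBC3* the difference was 0.38, but 0.09 without LV-NC replicate 1. *MCL1* over *PMAIP1*, a pair known for tight binding of their proteins, was 2.86 to 3.12 in LV-NC and 2.92 to 3.25 in LV-*ATF7*.

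**Figure D4:**
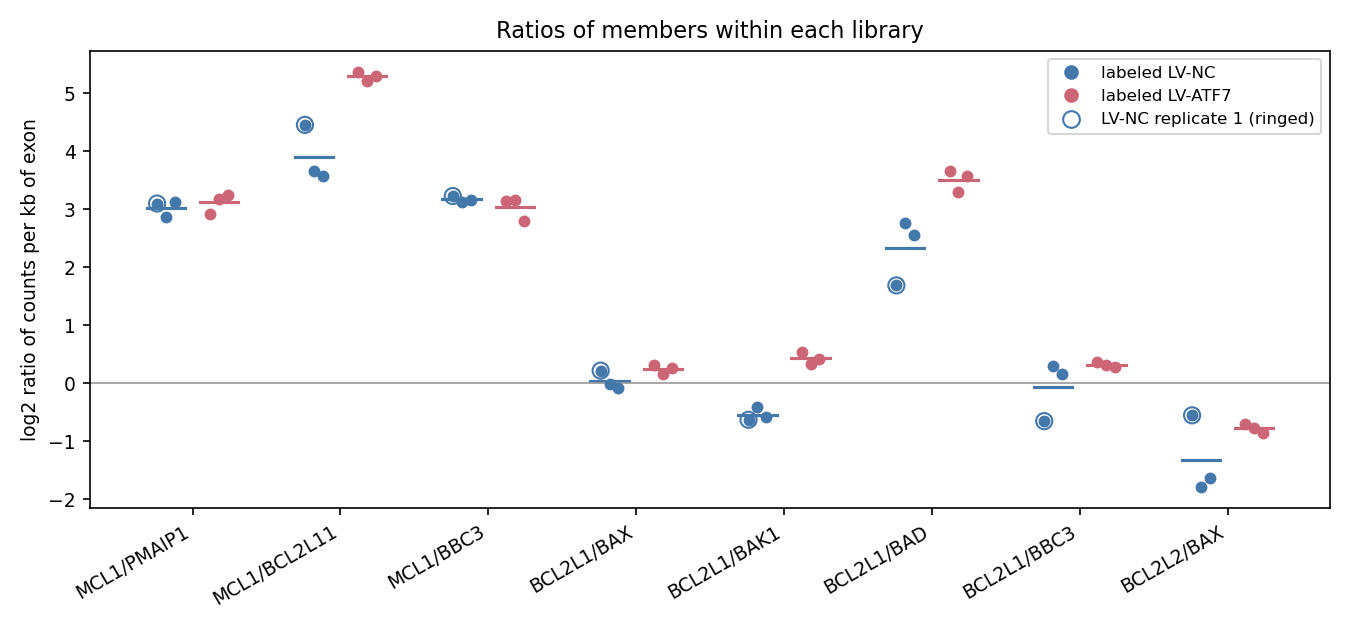
Log2 ratio of counts per kilobase of exon for 8 pairs of members in each library, with a bar at each group mean (n = 3) and LV-NC replicate 1 ringed. The groups are separate for *MCL1*/*BCL2L11*, *BCL2L1*/*BAK1* and *BCL2L1*/*BAD*, and they overlap for the other 5 pairs.

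ATF7 binds the cAMP response element (CRE), so the RefSeq promoter windows (GRCh38.p14, 250 bases before to 50 after the start) of the members were searched on both strands. Windows were found for 8 of the 10 genes, 14 windows in all, and not for *MCL1* and *BCL2L2*. The full CRE, TGACGTCA, was in none of them and in 1.85% of all 35116 windows. The shorter TGACG, which the full element contains, was found in those of *BAD*, *BAX*, *BCL2L1* and *PMAIP1* and in 24.6% of all windows. The forkhead motif GTAAACA, which FOXO factors bind, was found in *BCL2L11* only among these 8 genes and in 3.42% of all windows. Members were counted by gene, over all windows of each, and the background by single window, so these shares are not on the same scale. The stretches are shown, with the match in capitals, because they hold letters that ATF7 or, for *BCL2L11*, FOXO factors can bind, and a match here is a description of letters and not of binding.
BAD, chr11:64284736-64284776, minus strand: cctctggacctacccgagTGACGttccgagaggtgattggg
BAX, chr19:48954723-48954763, plus strand: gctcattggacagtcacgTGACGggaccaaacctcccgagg
BCL2L1, chr20:31724142-31724182, minus strand: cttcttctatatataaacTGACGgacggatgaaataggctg
PMAIP1, chr18:59899923-59899963, plus strand, match on the opposite strand: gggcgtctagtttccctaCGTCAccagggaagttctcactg
BCL2L11, chr2:111120673-111120715, plus strand: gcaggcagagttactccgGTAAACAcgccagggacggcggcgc
Of the 4 genes with TGACG, *BCL2L1* was higher in LV-*ATF7*, *BAD* was lower, and *BAX* and *PMAIP1* did not pass the test.

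The rest of the BCL2 family moved in both directions. Of 14 further family genes, 11 were in the table, of which 9 passed, 4 of them higher and 5 lower by the labels (median log2 fold change 0.23). The share called was 81.8%, beside 67.6% of all genes. *BOK*, which encodes a further effector-like protein, was 9.96, 4.46 and 5.21 CPM in LV-NC and 22.4, 21.4 and 26.7 CPM in LV-*ATF7* (log2 fold change 1.84, standard error 0.29, adjusted p = 7.29e-04). *BCL2L14* rose by 2.83 from a low level of 0.98 ± 0.41 CPM (adjusted p = 5.82e-05). *BCL2L12* fell by 1.63 (adjusted p = 1.76e-04), and *BNIP3L*, the mitophagy receptor NIX, fell by 1.03 (adjusted p = 7.59e-05). Named after their values were seen, the BH3-only genes outside the 10 also differed in sign: *HRK* rose by 1.67 (adjusted p = 2.45e-04) and *BIK* by 0.80 (adjusted p = 0.00734), while *BMF*, whose product is released on loss of attachment, fell by 0.59 (adjusted p = 0.0339). In LV-NC replicate 1, *BMF* was 13.92 CPM, at the level of the LV-*ATF7* libraries (13.20 to 13.88 CPM). It was 23.01 and 23.68 CPM in LV-NC replicates 2 and 3. *BCL2* itself was low, at 1.07 to 1.74 CPM in LV-NC and 1.90 to 2.19 CPM in LV-*ATF7*, and did not pass (adjusted p = 0.164).

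Among the caspases and mitochondrial factors, more genes were lower than higher, while 32.9% of all genes were lower and 34.7% higher. Of 15 genes for the apoptosome, caspases and mitochondrial factors, 11 passed, 8 of them lower and 3 higher by the labels (median log2 fold change -0.47), and the share called was 73.3%, beside 67.6% of all genes. *DIABLO*, whose product relieves caspases of their inhibitors, fell by 1.17 from a low level of 4.19 ± 0.46 CPM (adjusted p = 0.00214). *DFFA* and *DFFB*, the inhibitor and the nuclease of the caspase-activated DNase, rose by 0.85 (adjusted p = 6.88e-05) and 0.57 (adjusted p = 0.0105). The number called was 14 without LV-NC replicate 1, where 80.1% of all genes were called, and 7 without LV-*ATF7* replicate 2. Among the inhibitor of apoptosis proteins, 2 of 5 passed, 40.0% beside the background of 67.6%. *BIRC3* rose from 32.3 ± 3.55 to 165.8 ± 21.9 CPM (SD, n = 3 each), a log2 fold change of 2.36 (adjusted p = 4.91e-06), and *XIAP* fell by 0.62 (adjusted p = 0.00234). Without LV-NC replicate 1, 4 of the 5 passed, beside 80.1% of all genes. One of these was *BIRC5*, named after its values were seen, which was 13.7 CPM in LV-NC replicate 1 and 112.9 and 112.7 CPM in replicates 2 and 3, against 25.5 to 30.7 CPM in LV-*ATF7*.

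In the death receptor arm, which BID connects to the mitochondria, 6 of 11 genes were higher and 3 lower in LV-*ATF7* (median log2 fold change 0.27), so that 81.8% were called, beside 67.6% of all genes. *TNFSF10*, which encodes the death ligand TRAIL, was 24.0, 12.7 and 8.68 CPM in LV-NC and 416.5, 398.5 and 365.7 CPM in LV-*ATF7*. This was 26.0-fold higher (log2 fold change 4.70, standard error 0.35, adjusted p = 1.51e-05), and LV-NC replicate 1 was the highest of its group. *CFLAR*, which encodes the caspase-8 inhibitor FLIP, rose by 1.16 (adjusted p = 0.00316). It was 53.8 CPM in LV-NC replicate 1 and 27.5 and 29.4 CPM in replicates 2 and 3, and rose by 1.52 without replicate 1. The TRAIL receptor gene *TNFRSF10A* fell by 1.01 (adjusted p = 1.75e-04), and *RIPK1*, an adaptor kinase of the receptor complex, fell by 0.50 (adjusted p = 0.00101). *FASLG*, *TNFRSF10C* and *TNFRSF10D* had no row.

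Of 16 genes that regulate the transcription, binding or turnover of BCL2 family members, 8 passed, of which 4 were higher and 4 lower in LV-*ATF7*, below the background share of 67.6%. *MYC*, whose product sensitizes cells to apoptosis, rose by 2.22 (adjusted p = 8.27e-06), and *FOXO4* by 0.58 (adjusted p = 0.00911). *ATF3*, a stress-induced transcription factor, fell by 2.05 (adjusted p = 3.41e-05), and *MARCHF5*, a mitochondrial ubiquitin ligase that acts in turnover of MCL1 and NOXA, fell by 1.14 (adjusted p = 1.33e-05). *ATF3* was 848.2 CPM in LV-NC replicate 1 and 550.6 and 548.1 CPM in replicates 2 and 3, and fell by 1.83 without replicate 1. *FOXO1* and *FOXO3*, named after their values were seen as regulators of *BCL2L11*, had log2 fold changes of -0.02 and 0.05 and did not pass (adjusted p = 0.858 and 0.614).

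**Figure D5:**
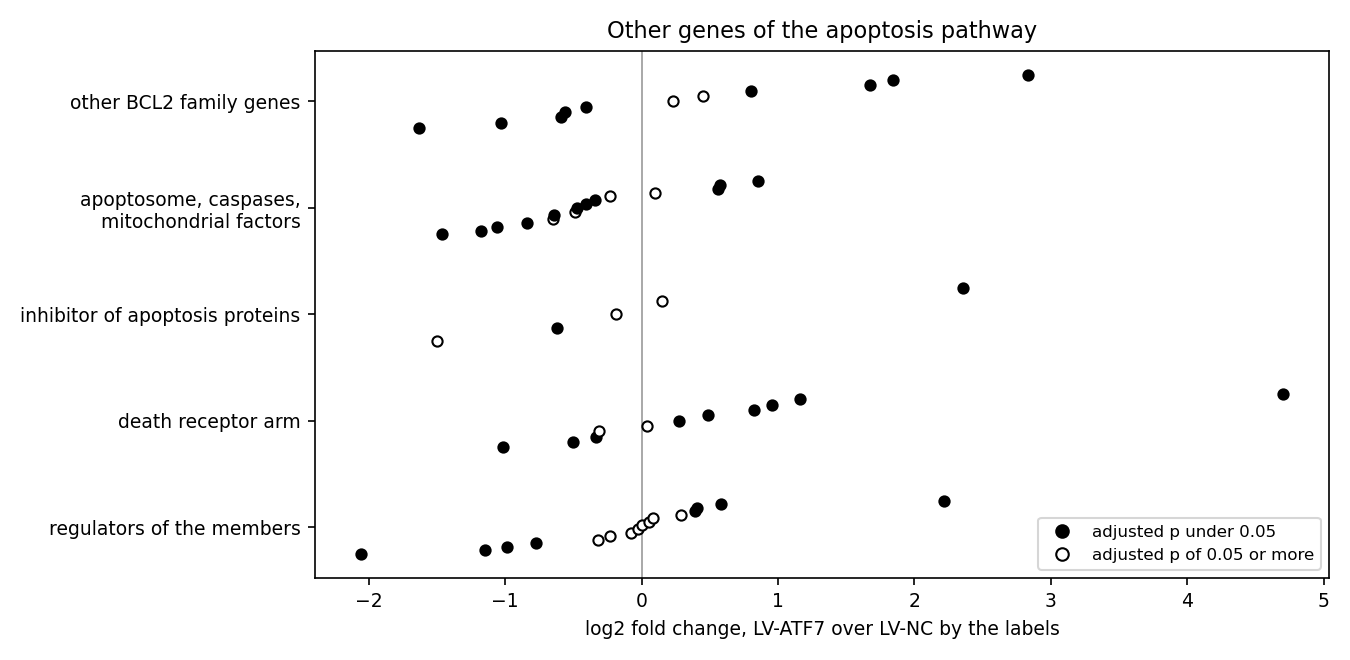
Change in expression (log2 of LV-*ATF7* to LV-NC, by the labels) for each tested gene of 5 lists of the apoptosis pathway, filled where the adjusted p is under 0.05. Changes of both signs occur in every list, and the largest rises are those of *TNFSF10* at 4.70 and *BCL2L14* at 2.83.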

How the data were processed

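For each of 6 libraries the authors deposited raw gene counts, with GRCh38 as the build in the submitters' processing notes. The aligner, counter, annotation and strandedness are not given in the sources used here. The authors also deposited FPKM values, which were not used, and columns with fold changes and p-values from their comparison of the groups, which were left aside. After TMM scaling, the quasi-likelihood test of edgeR 4.0.16 (R 4.3.3, no covariates) was run on the 12462 genes kept by filterByExpr, p-values were adjusted over all of them by Benjamini-Hochberg, and 0.05 was the threshold. Standard errors are the log2 fold change divided by the square root of F. The script was tested on simulated counts in which 200 of 12443 genes were changed, a far smaller share than the 67.6% called in these data. There, 9.63% of calls were false, above the nominal threshold, and 9 of 67 changes of 1.5-fold were recovered. With such unlike shares of changed genes, these rates do not carry over to these data. A gene that did not pass may still differ. Every gene in the table had at least 51 counts in total, so that rarer genes were not analyzed here. Gene positions, exon lengths and coding stretches came from GENCODE release 29 (12485 of 12499 identifiers matched), promoters from RefSeq. The members and lists were chosen with earlier results of these data known. In each list, the genes named were the 2 that rose most and the 2 that fell most of those that passed the test with separate groups and averaged 50 counts or more. Alternatives were DESeq2 1.42.0, limma 3.58.1 voom with quality weights, other scalings and filters, the replicate block, a fold change of 1.5 in addition, and each library left out. Library totals were 16686472 to 20562768 counts, and the members held from 80 to 24473 counts per library, with *BAD* the lowest. Results on some genes of the pathway are not reported here.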

Additional observations from a re-analysis of the deposited data

How the results depend on the processing

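*BID*, *BCL2L11*, *BCL2L2*, *BAK1* and *BAD* passed the test with the same sign under each of 13 alternatives, with log2 fold changes of 1.89 to 2.07, -1.65 to -1.44, 0.60 to 0.91, -0.70 to -0.47 and -0.93 to -0.54. *BCL2L1* was not called with library size only (0.26) or in 4 of 6 fits without one library (range 0.26 to 0.50). Library size only moved the median of all genes by -0.16. *MCL1*, *BAX* and *BBC3*, which did not pass in any alternative, changed sign: *MCL1* to 0.10 with limma voom (range without one library -0.24 to 0.071), *BAX* without LV-NC replicate 1 (range -0.026 to 0.30) and *BBC3* to -0.13 with library size only and in 3 fits without one library (range -0.078 to 0.18). *PMAIP1* stayed between -0.35 and -0.02. The cause of these changes was not tested. The number of members called was 4 to 6. Leaving out one library gave 7 to 14 genes for the apoptosome and caspases and 2 to 4 for the inhibitor of apoptosis proteins (4 with limma voom). Requiring a fold change of 1.5 as well gave 6 for the apoptosome and caspases, 5 for the death receptor arm and 5 for the regulators. Deviations of libraries with the same replicate number had correlations of 0.058, -0.021 and 0.065, and not every library correlated best with its own number. Because LV-NC replicate 1 dominates the deviations in its group, these values cannot show whether libraries were paired, which the labels do not state. With the replicate block, 8210 genes were called in place of 8429, and 6 of the 10 members. Differences near the scaling shift, and folds of low genes such as *BAD*, are limited in precision.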
